A study of Mus musculus with 12 samples.

Results

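The levels of 9 transcription factors of monocytes and macrophages, picked by gene symbol from a table of 37775 genes, were compared in 4 fractions of monocytes and macrophages sorted from inflamed mouse skin. The factors are Spi1, Cebpb, Irf8, Irf4, Maf, Klf2, Klf4, Nr4a1 and Pparg. All libraries came from the ear skin of WT BALB/c mice with IgE-mediated chronic allergic inflammation (IgE-CAI), a model in which mice received 300 μg of IgE against the hapten TNP and then 10 μg of TNP-OVA in the ear, and the skin was taken on day 5 after this challenge. Cells positive for CD45 and CD11b and negative for SiglecF and Ly6G were divided by surface Ly6C and PD-L2 into classical monocytes (Ly6Chi PD-L2lo), early classical monocyte-derived macrophages (early CMDMs, Ly6Chi PD-L2hi), late CMDMs (Ly6Clo PD-L2hi) and resident-like macrophages (Ly6Clo PD-L2lo). There were 3 libraries per fraction and 12 in all, every one from challenged skin, and unchallenged skin and blood were not analysed here. The labels do not say whether libraries 1 to 3 came from separate animals, and the p-values below then measure the spread between libraries, which may be technical. The mice of the study were males aged 7 to 12 weeks.

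PU.1, the product of Spi1, is the factor that makes a progenitor myeloid, and it acts on enhancers together with C/EBP factors and interferon regulatory factors. Monocytes are made under IRF8 and KLF4 and, for the patrolling non-classical kind, NR4A1, whereas macrophage programmes draw on MAF, PPARγ and IRF4, of which the latter 2 are known for the response to IL-4. Several of these genes, among them Nr4a1, Klf2 and Klf4, are also switched on within minutes by signals and by handling of cells.

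The libraries held between 12537178 and 19844113 counts, and levels are given below in CPM, a gene's counts relative to the total of its library after TMM scaling, a factor per library that centres the bulk of genes. None of the 9 factors was at or under 3 counts in any library, which is 0.151 to 0.239 CPM. The sort was checked on Ly6c2, which encodes Ly6C and had 492 ± 113 CPM (SD, n = 3) in classical monocytes, 49.3 ± 4.78 in early CMDMs, 19.1 ± 2.71 in late CMDMs and 15.9 to 18.9 in resident-like macrophages. Pdcd1lg2, which encodes PD-L2, had 14.1 ± 1.75, 21.4 ± 1.34, 32.2 ± 1.35 and 9.60 ± 1.78 CPM in the same order, which followed the gates. Its rise from early to late CMDMs turned sign with the leukocyte gene scaling described below. In its single-cell data the paper reports that Pdcd1lg2 rose in early CMDMs and declined gradually after them. The libraries also held transcripts of other cells, although the gate on CD45 and CD11b should remove keratinocytes, which lack CD45. The summed level of 6 keratinocyte genes was 17096 to 27284 CPM in early CMDMs and 1871 to 4050 CPM in the other fractions. For 6 fibroblast genes the sum was 3254 to 5588 CPM in classical monocytes and 2988 to 4205 in early CMDMs. It was 478 to 499 CPM in late CMDMs and 276 to 358 in resident-like macrophages. 10 genes that all leukocytes use summed to 1122 to 1802 CPM in early CMDMs, against 4405 to 4759 in the classical monocyte, 2478 to 2812 in the late CMDM and 4114 to 4269 in the resident-like libraries. In bulk RNA a smaller number of cells of a type and less RNA per cell cannot be told apart. Every comparison was therefore also made with libraries scaled on the 10 leukocyte genes, which moved the median gene by 1.73 on the log2 scale in early CMDMs against classical monocytes, -0.95 in late against early CMDMs, -0.64 in resident-like macrophages against late CMDMs, 0.77 in late CMDMs against classical monocytes, 0.13 in resident-like macrophages against classical monocytes and -1.60 in resident-like macrophages against early CMDMs. A change in the direction of such a shift tends to grow in size, so for signs the second scaling bears on changes that go against it. A call can still be lost in either case, as for Rxra below. The share of higher genes among those called changed in the same order from 54.0% to 97.7%, 45.1% to 0.99%, 45.1% to 4.86%, 50.8% to 92.4%, 45.7% to 55.7% and 46.0% to 1.5%. The 10 leukocyte genes did not all move together. Under their own scaling 4 were higher and 3 lower in early CMDMs than in classical monocytes, and as many in late CMDMs. The second scaling is thus an alternative and not a fixed reference.

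With TMM scaling, the factors differed in their order of the 4 fractions, although Spi1 and Irf4 had the same order of means. Irf8 was highest in classical monocytes, Nr4a1 in early CMDMs, Maf in late CMDMs, and Irf4 and Spi1 in resident-like macrophages, while Klf2 was high in both Ly6Clo fractions and Klf4 low in classical monocytes alone. Of these placements, 3 did not hold with leukocyte gene scaling. Maf was lower in late than in early CMDMs (-0.48 on the log2 scale). Spi1 in resident-like macrophages was at -0.08 and -0.06 against late and early CMDMs, and Klf2 there was at -0.48 against early CMDMs. Cebpb, Irf4, Irf8, Nr4a1 and Pparg also turned sign in some comparisons, listed at the end. Pparg had the lowest level of the 9, and Cebpb varied more between libraries of classical monocytes and of resident-like macrophages than between the means of the fractions.

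**Figure D1:**
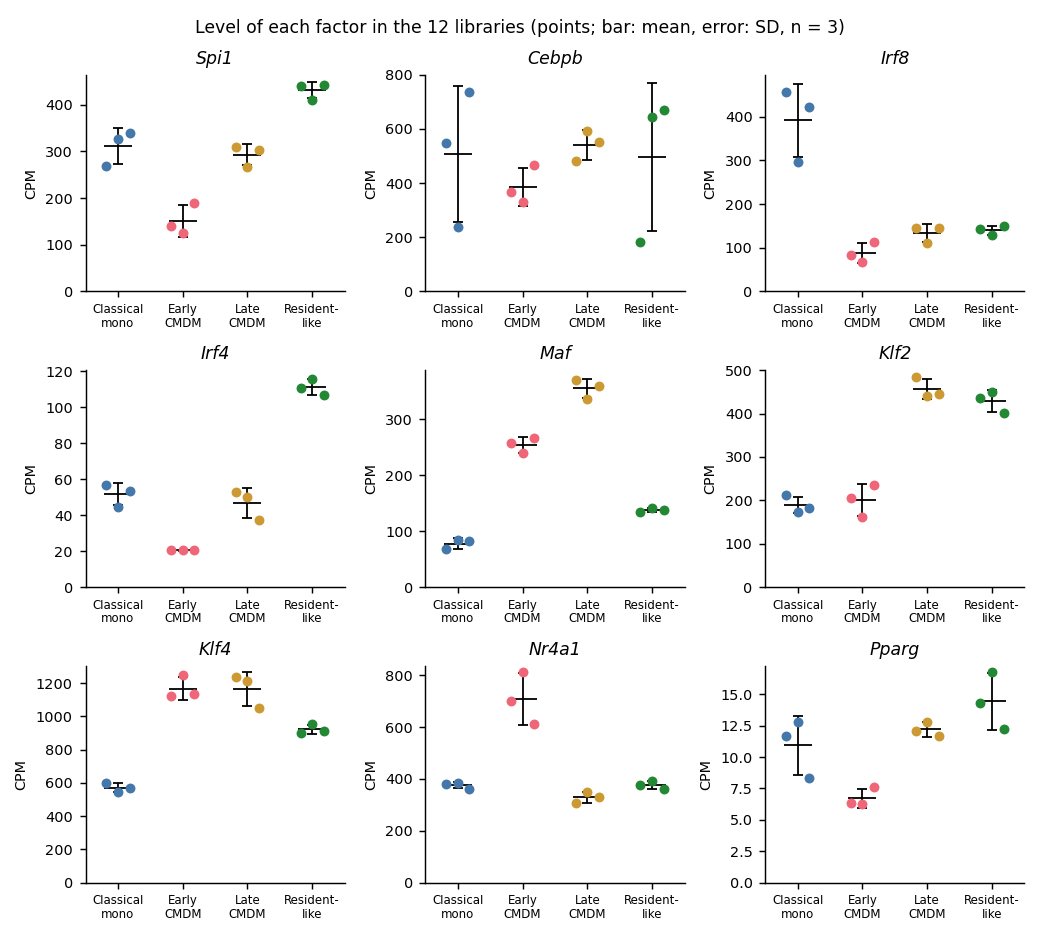
Level of each of the 9 factors in CPM (vertical axis, starting at 0) in the 3 libraries of each fraction (points from left to right: libraries 1, 2 and 3), with the mean (wide bar) and SD (error bar). Nr4a1 sits between 610 and 812 CPM in early CMDMs and at 391 CPM or below in the other 9 libraries, and 1 library each of classical monocytes (238 CPM) and resident-like macrophages (182 CPM) has a low level of Cebpb.

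In early CMDMs against classical monocytes, 7 of the 9 factors passed an adjusted p of 0.05 in the quasi-likelihood test of edgeR (p adjusted by Benjamini-Hochberg over all genes), beside 44.9% of the 22118 genes tested. Maf, Klf4 and Nr4a1 were higher, and Spi1, Irf4, Irf8 and Pparg were lower, of which Spi1, Irf4 and Pparg turned to higher with leukocyte gene scaling. Late CMDMs differed from early CMDMs in 7 factors, beside 31.9% of all genes: Spi1, Maf, Klf2, Irf4, Irf8 and Pparg were higher and Nr4a1 was lower, and with leukocyte gene scaling Maf, Irf8 and Pparg turned to negative values while Spi1, Klf2 and Irf4 were no longer called. Resident-like macrophages differed from late CMDMs in 4 factors, beside 28.1% of all genes, with Spi1 and Irf4 higher and Maf and Klf4 lower, and Spi1 turned to a negative value of -0.08 with leukocyte gene scaling.

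Late CMDMs differed from classical monocytes in 4 factors, beside 35.6% of all genes, with Maf, Klf2 and Klf4 higher and Irf8 lower, and Irf8 stayed lower against the shift of the leukocyte gene scaling. Resident-like macrophages differed from classical monocytes in 6 factors, beside 23.7% of all genes, with Spi1, Maf, Klf2, Klf4 and Irf4 higher and Irf8 lower, again under both scalings. Against early CMDMs they differed in 8 factors, beside 46.6% of all genes, with Spi1, Klf2, Irf4, Irf8 and Pparg higher and Maf, Klf4 and Nr4a1 lower, but Spi1, Klf2, Irf8 and Pparg turned to negative values with leukocyte gene scaling. These 6 comparisons share libraries and are therefore not independent of each other. Their shares of all genes are also the ones to set beside the counts of family, target and marker genes below.

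**Figure D2:**
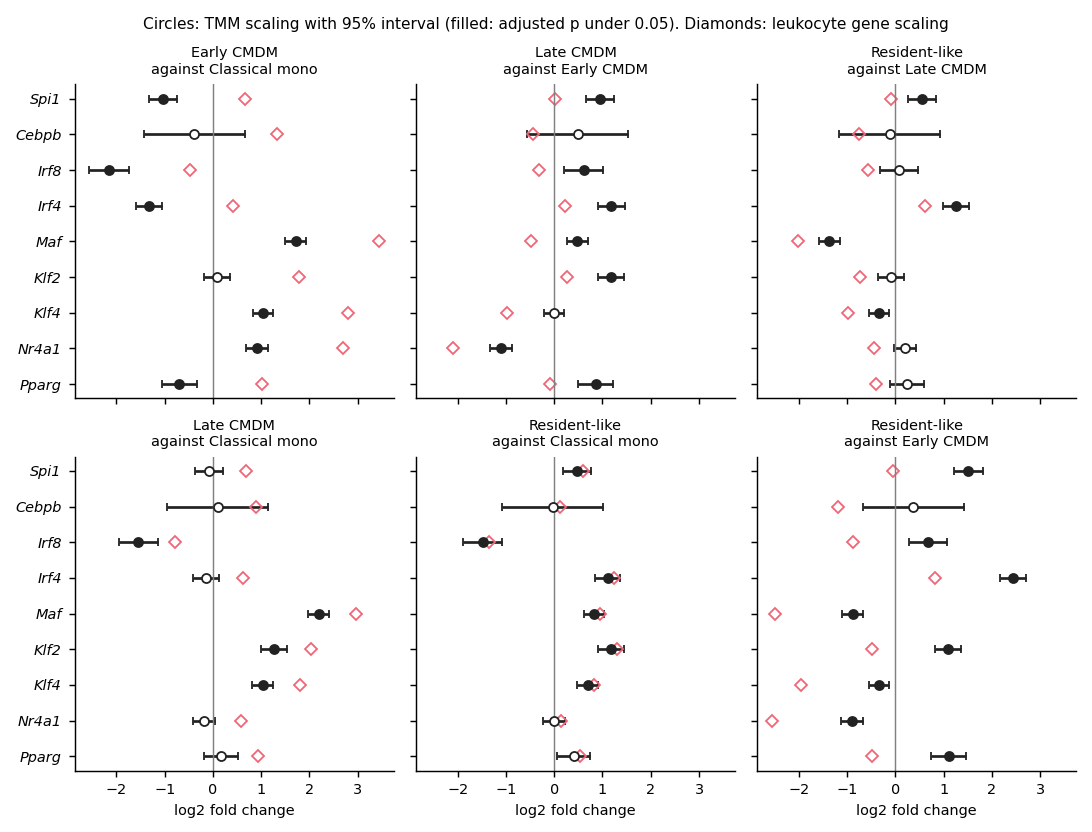
Log2 fold change (horizontal axis) of each factor in the 6 comparisons, with TMM scaling (circles with 95% interval, filled where the adjusted p was under 0.05) and with leukocyte gene scaling (diamonds). In early CMDMs against classical monocytes all diamonds lie to the right of the circles, so that Spi1 moves from -1.04 to 0.66 and Irf8 from -2.16 to -0.47, whereas in resident-like macrophages against classical monocytes circles and diamonds nearly coincide.

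PU.1, encoded by Spi1 on chr2:91082390-91115756 (GRCm38, plus strand), is the shared myeloid factor. Its level was 269, 326 and 340 CPM in the classical monocyte libraries, 141, 125 and 190 in those of early CMDMs, 310, 267 and 302 in those of late CMDMs and 440, 411 and 442 in those of resident-like macrophages. The libraries of early CMDMs were below and those of resident-like macrophages above all others, while classical monocytes and late CMDMs overlapped. The log2 fold change was -1.04 ± 0.14 (SE) in early CMDMs against classical monocytes, with an adjusted p of 1.43e-05 in edgeR's quasi-likelihood test, and 0.66 with leukocyte gene scaling. It was 0.95 ± 0.14 in late against early CMDMs and 0.56 ± 0.14 in resident-like macrophages against late CMDMs, with 0.02 and -0.08 respectively when scaled on leukocyte genes. Against classical monocytes, resident-like macrophages had a log2 fold change of 0.47 ± 0.14 (adjusted p = 0.0207 in edgeR's quasi-likelihood test), which was not called without classical monocyte library 1 (0.38) or without resident-like library 1 (0.45) or 3 (0.45). The order of the Spi1 levels was thus that of the leukocyte gene sums except for classical monocytes, and the part of the leukocyte share of the RNA in these differences was not tested.

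With TMM scaling, the relatives of PU.1 were highest in classical monocytes. Spib, known from B cells and plasmacytoid dendritic cells, had 526, 225 and 344 CPM in classical monocytes and between 7.95 and 11.7 CPM in the other 9 libraries. Against classical monocytes, early CMDMs had a log2 fold change of -5.09, and its sign was the same with leukocyte gene scaling. Spic, the factor of heme-handling macrophages of the spleen, had 34.6 ± 6.80 CPM in classical monocytes and 10.9 ± 3.09, 15.7 ± 2.34 and 15.8 ± 2.11 CPM in the early CMDM, late CMDM and resident-like libraries. Like Spi1, Spic was lower in early CMDMs than in classical monocytes and turned sign there with leukocyte gene scaling. Of 8 genes that PU.1 is known to drive, 6 were lower and 0 higher in early CMDMs than in classical monocytes, and 3 of the 6 (Csf3r, Itgam and Fcgr1) turned sign with leukocyte gene scaling. Cd14, a coreceptor for lipopolysaccharide, fell from 1648 ± 384 to 370 ± 98.4 CPM. Csf1r, the receptor that keeps macrophages alive, stood at 395 ± 123 and 391 ± 103 CPM in these fractions and at 865 ± 38.1 CPM in late CMDMs.

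C/EBPβ, encoded by the single exon of Cebpb on chr2:167688915-167690418 (plus strand), is a factor of inflammatory genes and of Ly6Clo monocytes. The gene had 548, 238 and 735 CPM in the classical monocyte libraries, 365, 330 and 465 in those of early CMDMs, 482, 591 and 552 in those of late CMDMs and 182, 643 and 668 in those of resident-like macrophages. Library 2 of classical monocytes and library 1 of resident-like macrophages were far below the others of their fraction, and Cebpb did not pass the test in any of the 6 comparisons, where the largest value was a log2 fold change of 0.49 ± 0.47 in late against early CMDMs (adjusted p = 0.487 in edgeR's quasi-likelihood test). With these libraries left out together, a choice made after seeing their values, edgeR's quasi-likelihood test gave a log2 fold change of -0.73 (adjusted p = 0.00155) in early CMDMs against classical monocytes, 0.49 (adjusted p = 0.0162) in late against early CMDMs and 0.76 (adjusted p = 0.0012) in resident-like macrophages against early CMDMs. Under leukocyte gene scaling of all libraries, the same comparisons gave 1.32, -0.44 and -1.20, each of the opposite sign. A fit of the 6 libraries of early and late CMDMs alone called the rise between them (0.50, adjusted p = 0.0125, edgeR). Tmem189 overlaps Cebpb on the opposite strand.

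Cebpa, the factor of the myeloid progenitor, moved with less spread. It had 109 ± 11.1 CPM in classical monocytes and rose to 249 ± 7.64 CPM in early CMDMs (log2 fold change 1.19), with 202 ± 15.4 CPM in late CMDMs and 165 ± 22.7 in the resident-like libraries. Cebpd, Cebpe and Cebpg stood at 85.6 to 109, 2.05 to 4.97 and 74.1 to 93.4 CPM as fraction means.

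IRF8, encoded on chr8:120736358-120756694 (plus strand), commits progenitors to monocytes and dendritic cells and carries interferon γ responses. Irf8 had 456, 296 and 421 CPM in the classical monocyte libraries, 83.2, 67.0 and 113 in those of early CMDMs, 145, 111 and 146 in those of late CMDMs and 143, 129 and 149 in those of resident-like macrophages. The classical monocyte libraries were all above every other library, and early CMDMs were below them by a log2 fold change of -2.16 ± 0.19 (adjusted p = 3.31e-07 in edgeR's quasi-likelihood test). Late CMDMs were at -1.55 ± 0.19 and resident-like macrophages at -1.48 ± 0.19 against the same monocytes. With leukocyte gene scaling these values were -0.47, -0.78 and -1.35, so that Irf8 was the one of the 9 factors that was lower than in classical monocytes in all 3 macrophage fractions under both scalings. The rise of 0.61 ± 0.19 from early to late CMDMs (adjusted p = 0.0212 in edgeR's quasi-likelihood test) came with libraries that overlapped, was not called in 4 of the fits that left out 1 library of these fractions, and had the value -0.31 with leukocyte gene scaling. It lost the call without the filter on low counts (0.60), without early CMDM library 1 (0.56) or 2 (0.44) and without late CMDM library 1 (0.55) or 3 (0.54). Gm20388 overlaps Irf8 on the same strand.

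The high Irf8 of classical monocytes came with transcripts of plasmacytoid dendritic cells, which use IRF8, SpiB and IRF7 and carry little CD11b, so that the CD11b+ gate should remove most of them. Siglech, a surface lectin of these cells, had 395, 209 and 276 CPM in classical monocytes and 12.6 to 43.5 CPM elsewhere. Of 6 markers of plasmacytoid dendritic cells, 5 were lower and 1 (Ly6d, also a keratinocyte gene) was higher in early CMDMs than in classical monocytes, and none of the 6 was at 0 in any fraction. The summed level of the 6 was 1154 to 1883 CPM in the classical monocyte libraries and 1740 to 2416 in those of early CMDMs, where Ly6d alone had 2040 ± 345 CPM, but 397 to 444 in those of late CMDMs and 325 to 407 in the resident-like ones. Within classical monocytes, library 1 was the highest and library 2 the lowest for Irf8, Siglech, Spib and Irf7. That order was not particular to this fraction, since Irf7 had it and Irf8 was lowest in library 2 in all 4 fractions, and the part of plasmacytoid dendritic cells in the level of Irf8 was not tested.

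IRF4, encoded on chr13:30749226-30766976 (plus strand), is used by macrophages under IL-4 and by CD11b+ dendritic cells. Irf4 had 56.9, 44.7 and 53.5 CPM in the classical monocyte libraries, 20.8, 20.4 and 20.3 in those of early CMDMs, 52.9, 50.2 and 37.1 in those of late CMDMs and 111, 116 and 107 in those of resident-like macrophages. Resident-like macrophages were above and early CMDMs below all other libraries, while classical monocytes and late CMDMs overlapped. The log2 fold change was 1.25 ± 0.12 in resident-like macrophages against late CMDMs (adjusted p = 1.71e-06 in edgeR's quasi-likelihood test) and 1.10 ± 0.12 against classical monocytes, and both held with leukocyte gene scaling (0.60 and 1.23). In early CMDMs against classical monocytes it was -1.33 ± 0.13, which turned to 0.41 with that scaling.

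The resident-like fraction also carried transcripts of Langerhans cells and dendritic cells. Cd207, which encodes the Langerhans cell lectin langerin, had 679, 859 and 920 CPM there and 31.1 to 75.9 CPM in the other 9 libraries. Of 8 markers of conventional dendritic cells and Langerhans cells, 5 were higher and 0 lower in resident-like macrophages than in late CMDMs, and none was at 0. Against classical monocytes, 2 of the 8 were higher and 3 lower. The summed level of the 8 was 953 to 1257 CPM in resident-like macrophages, where Cd207 alone had 679 to 920. It was 162 to 198 in the late CMDM, 208 to 279 in the early CMDM and 200 to 247 in the classical monocyte libraries. The part of Langerhans cells and dendritic cells in the level of Irf4 was not tested. Ciita, the master factor of MHC class II genes, had 143 ± 3.86 CPM in resident-like macrophages and 22.1 ± 4.76 in the late CMDM libraries.

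Of the 9 IRF genes, 5 (Irf4, Irf5, Irf7, Irf8 and Irf9) fell and 1 rose in early CMDMs against classical monocytes, but Irf4, Irf5 and Irf9 turned sign with leukocyte gene scaling. Irf7, the amplifier of type I interferon, had 178 ± 57.1 CPM in classical monocytes and 45.8 ± 16.1, 44.7 ± 14.1 and 39.1 ± 8.91 CPM in the early CMDM, late CMDM and resident-like libraries. Of 8 genes known to answer to IRF8 or interferon γ, 7 fell and 0 rose in the first comparison, of which 5, among them Ciita, Il12b, Il18 and Cst3, turned sign with leukocyte gene scaling. Cybb, the core of the phagocyte NADPH oxidase, fell from 790 ± 28.5 to 203 ± 44.7 CPM. Irf1, Irf2 and Irf3 were at 226 to 297, 21.8 to 26.9 and 25.2 to 29.2 CPM as fraction means.

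**Figure D3:**
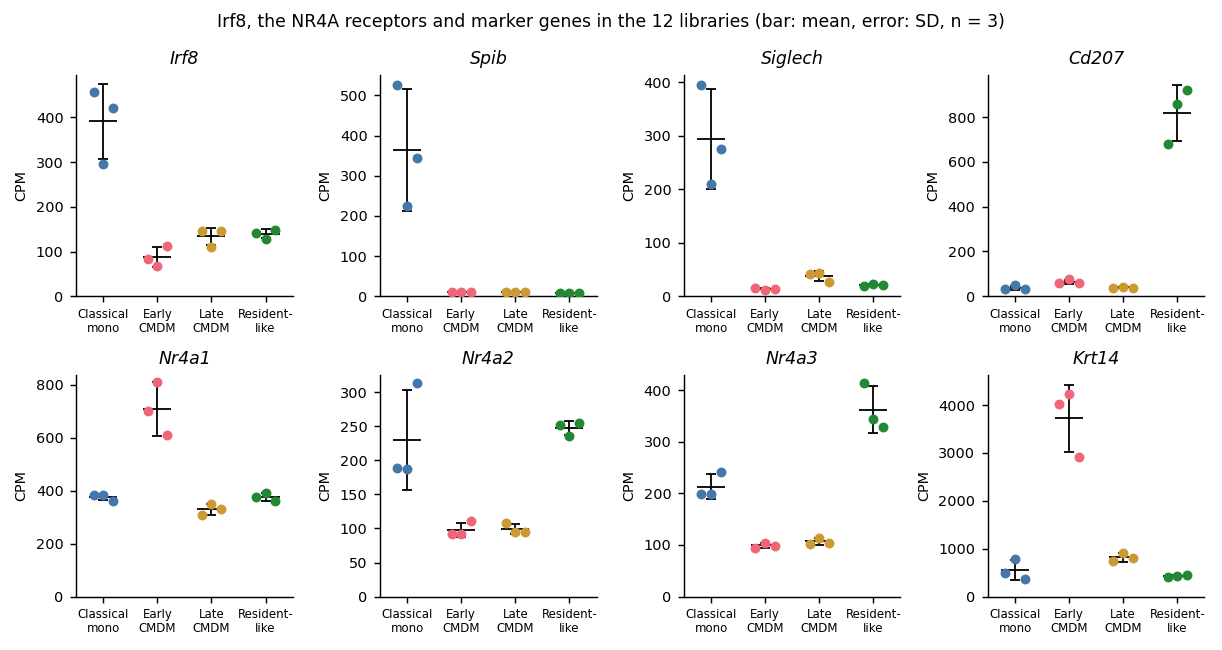
CPM (vertical axes, starting at 0) of Irf8, Spib and Siglech, of Cd207, of the 3 NR4A receptors and of the keratinocyte gene Krt14 in the 3 libraries of each fraction (points: libraries 1, 2 and 3 from left to right; bar: mean, error bar: SD). Spib and Siglech are high where Irf8 is, in classical monocytes, Krt14 is 2921 CPM or more in early CMDMs alone, where Nr4a1 is highest, and Nr4a2 and Nr4a3 are low in both kinds of CMDM.

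c-MAF, encoded by Maf on chr8:115682942-115707794 (minus strand), holds macrophages in a mature state and drives complement C1q and Il10. The level of Maf was 67.2, 83.8 and 82.0 CPM in the classical monocyte libraries, 258, 239 and 267 in those of early CMDMs, 370, 337 and 360 in those of late CMDMs and 134, 140 and 137 in those of resident-like macrophages. No library of any fraction overlapped with a library of another. Against classical monocytes Maf was higher by a log2 fold change of 1.71 ± 0.10 in early CMDMs (adjusted p = 3.33e-09 in edgeR's quasi-likelihood test), by 2.19 ± 0.10 in late CMDMs and by 0.82 ± 0.10 in the resident-like fraction, and these values were 3.45, 2.97 and 0.96 with leukocyte gene scaling. In resident-like macrophages against late CMDMs Maf fell by 1.37 ± 0.10 on the log2 scale, and by 2.01 with the other scaling. Between early and late CMDMs the sign rested on the scaling, with 0.48 ± 0.10 under TMM and -0.48 with leukocyte gene scaling. Gm15655, an antisense gene, overlaps Maf.

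Of the small MAF proteins, which lack a transactivation domain, Maff had 249 ± 37.8 CPM in classical monocytes and 561 ± 31.9 in the resident-like libraries, where it was higher under both scalings (1.17 with TMM). Of 8 genes known to follow c-MAF, 7 were higher and 0 lower in late CMDMs, and 8 were higher in resident-like macrophages, than in classical monocytes. Of the same 8, 6 were higher and 2 lower in early CMDMs than in classical monocytes, of which Il10 turned sign with leukocyte gene scaling, and in resident-like macrophages against late CMDMs, where Maf fell, 2 were higher and 3 lower. C1qa, a chain of complement C1q, had 163 ± 50.2, 313 ± 79.6, 1032 ± 75.5 and 1090 ± 47.3 CPM across the fractions from classical monocytes to resident-like macrophages. Cd163, the scavenger receptor for haemoglobin, had 96.8 ± 7.91, 400 ± 122, 1015 ± 229 and 246 ± 12.6 CPM. From late CMDMs to resident-like macrophages Cd163 fell with Maf (log2 fold change -2.05), while C1qa was not called with TMM (0.08). With leukocyte gene scaling all 8 macrophage markers tested, C1qa among them, were lower in this comparison. Of the 8 genes known to follow c-MAF, 1 was then higher and 6 lower, and Il10 turned sign.

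KLF2, encoded on chr8:72319033-72321656 (plus strand), restrains inflammatory activation of monocytes and endothelium. Klf2 had 211, 174 and 183 CPM in the classical monocyte libraries, 206, 161 and 236 in those of early CMDMs, 484, 441 and 445 in those of late CMDMs and 435, 450 and 402 in those of resident-like macrophages. The Ly6Clo libraries were all above the Ly6Chi libraries, with overlap inside each pair. The log2 fold change was 1.27 ± 0.13 in late CMDMs (adjusted p = 1.02e-06 in edgeR's quasi-likelihood test) and 1.18 ± 0.13 in resident-like macrophages against classical monocytes, and 2.04 and 1.31 with leukocyte gene scaling. In late against early CMDMs it was 1.19 ± 0.13, and 0.25 with that scaling, where it was not called (adjusted p = 0.148, edgeR). Resident-like macrophages were above early CMDMs by 1.09, which turned to -0.48 with that scaling (adjusted p = 0.00674, edgeR). Of 5 genes of cell traffic known to depend on KLF2, 4 were lower and 1 higher in early CMDMs than in classical monocytes, and S1pr1 and Thbd turned sign with leukocyte gene scaling. Where Klf2 was higher, 1 was higher and 2 lower (late CMDMs against classical monocytes), 0 higher and 4 lower (resident-like macrophages against classical monocytes), and 2 higher and 1 lower (late against early CMDMs). Thbd, which encodes the anticoagulant receptor thrombomodulin, had 49.5 ± 10.7 CPM in classical monocytes, 25.2 ± 1.22 in the early CMDM and 24.3 ± 0.181 in the late CMDM libraries, and at least 15.8 CPM in the resident-like ones.

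KLF4, encoded on chr4:55527143-55532466 (minus strand), is needed for Ly6Chi monocytes and takes part in alternative activation of macrophages, and it also acts in the skin barrier of keratinocytes. Klf4 had 596, 542 and 572 CPM in the classical monocyte libraries, 1124, 1247 and 1132 in those of early CMDMs, 1239, 1211 and 1047 in those of late CMDMs and 899, 955 and 909 in those of resident-like macrophages. Classical monocytes were below all other libraries, and resident-like macrophages were below both kinds of CMDM, which overlapped. Compared with classical monocytes, Klf4 had a log2 fold change of 1.03 ± 0.10 in early CMDMs (adjusted p = 4.25e-07 in edgeR's quasi-likelihood test), 1.03 ± 0.10 in late CMDMs and 0.69 ± 0.10 in the resident-like fraction, and 2.79, 1.81 and 0.82 with leukocyte gene scaling. In late against early CMDMs it was 0.00 ± 0.10, with a 95% interval from -0.21 to 0.21, and it was -0.98 with leukocyte gene scaling (adjusted p = 5.32e-05, edgeR). The fall of 0.34 in resident-like macrophages against late CMDMs (adjusted p = 0.0178 in edgeR's quasi-likelihood test) was not called without late CMDM library 1 (-0.30) or 2 (-0.31) or without resident-like library 1 (-0.32) or 3 (-0.33). Keratinocyte genes were higher in early CMDMs than in late CMDMs, as given above, while Klf4 was level between them under TMM, and the part of keratinocytes in Klf4 was not tested.

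Of 14 KLF genes tested, 9 rose and 1 fell in early CMDMs against classical monocytes, and the one that fell, Klf13, turned sign with leukocyte gene scaling. Klf6, an abundant member that is induced in wounds, had 662 ± 23.1, 962 ± 24.1, 1404 ± 77.0 and 1408 ± 44.4 CPM across the fractions from classical monocytes to resident-like macrophages. Klf5, a factor of basal keratinocytes and other epithelia, had 68.7 ± 23.3 CPM in the classical monocyte libraries, 516 ± 79.8 in those of early CMDMs, 113 ± 11.2 in those of late CMDMs and 52.7 to 69.7 in those of resident-like macrophages. Its highest fraction was thus that of the keratinocyte sum, and the part of keratinocytes in Klf5 was not tested. Klf3, a repressor, had 394 ± 52.4 CPM in early CMDMs against 167 ± 5.37 CPM in late CMDMs. Klf1, Klf14 and Klf17 had too few counts to be tested.

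**Figure D4:**
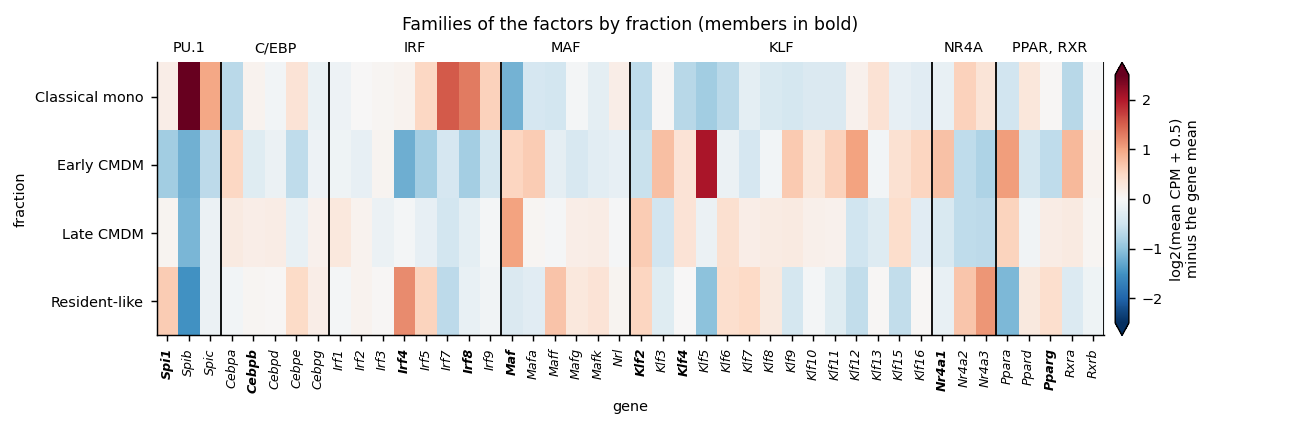
Mean level of genes of the 7 families by fraction (rows), as log2(mean CPM + 0.5) minus the mean of the gene over the 4 fractions (colour, red for higher and blue for lower), with the 9 factors in bold. Spib, Irf7 and Irf8 are red in classical monocytes, Klf5 in early CMDMs, Maf in late CMDMs and Irf4 and Nr4a3 in resident-like macrophages; the colours rest on TMM scaling, and with leukocyte gene scaling the row of early CMDMs shifts towards red.

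NR4A1 (Nur77), encoded on chr15:101254269-101274795 (plus strand), is an orphan nuclear receptor that non-classical monocytes need and that T cells and macrophages switch on at once after a signal. Its start site in the RefSeq table lies inside the longer gene of the annotation. The 250 bases before the starts of Nr4a1 and of 3 other factors are shown because all 4 are known to be induced fast by signals and because Nr4a1 and Klf4 both rose in early CMDMs. They are RefSeq sequences of GRCm38.p6 written 5′ to 3′ in the direction of the gene, for Nr4a1 (chr15:101266596-101266845, plus strand), Klf4 (chr4:55532476-55532725, minus strand), Klf2 (chr8:72318812-72319061, plus strand) and Cebpb (chr2:167688665-167688914, plus strand). Capitals mark TGCGTCA and the shorter CGTCA, which lies inside it, or their complements, letters that are part of the known binding site of CREB, the factor of cAMP signals:
Nr4a1: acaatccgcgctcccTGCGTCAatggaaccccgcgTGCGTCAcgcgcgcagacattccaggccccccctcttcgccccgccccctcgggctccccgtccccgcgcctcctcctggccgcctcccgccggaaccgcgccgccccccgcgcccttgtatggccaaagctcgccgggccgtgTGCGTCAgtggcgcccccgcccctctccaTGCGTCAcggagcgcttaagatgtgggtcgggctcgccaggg
Klf4: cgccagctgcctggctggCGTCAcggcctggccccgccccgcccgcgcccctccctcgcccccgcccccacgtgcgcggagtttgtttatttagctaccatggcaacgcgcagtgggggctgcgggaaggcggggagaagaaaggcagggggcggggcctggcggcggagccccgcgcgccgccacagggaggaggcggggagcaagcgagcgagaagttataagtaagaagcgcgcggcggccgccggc
Klf2: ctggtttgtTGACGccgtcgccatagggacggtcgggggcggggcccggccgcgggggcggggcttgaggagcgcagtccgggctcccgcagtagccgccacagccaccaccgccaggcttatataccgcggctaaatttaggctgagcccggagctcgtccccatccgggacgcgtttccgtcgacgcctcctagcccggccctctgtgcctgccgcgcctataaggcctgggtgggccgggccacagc
Cebpb: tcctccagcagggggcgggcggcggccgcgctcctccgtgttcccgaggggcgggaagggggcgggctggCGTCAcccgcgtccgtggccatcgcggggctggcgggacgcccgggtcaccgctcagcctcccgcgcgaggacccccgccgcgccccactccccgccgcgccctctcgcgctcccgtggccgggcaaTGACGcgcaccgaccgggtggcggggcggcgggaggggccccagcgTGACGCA
The window of Nr4a1 held 4 matches of TGCGTCA, at -235, -215, -71 and -42 bases from the start. This motif was found on either strand in 1.75% of 32851 promoter windows of the same length, and Nr4a1 was the 1 window of them with at least 4 matches, a number chosen after its sequence had been seen. Cebpb held 1 match of TGCGTCA and 3 of CGTCA, and Klf4 and Klf2 held 1 match of CGTCA each, which 17.8% of all windows held. Klf4 held 4 and Klf2 held 2 matches of the GC box CCCCGCCC (16.1% of windows), which these capitals do not mark. 7 of the 9 factors had a window in the table, and those of Irf4, Irf8 and Pparg held no CGTCA.

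For Irf8, the factor that fell, the window before the first start (chr8:120736108-120736357, plus strand) is shown with capitals at TTCNNNGAA, the letters of a binding site shared by STAT factors:
Irf8: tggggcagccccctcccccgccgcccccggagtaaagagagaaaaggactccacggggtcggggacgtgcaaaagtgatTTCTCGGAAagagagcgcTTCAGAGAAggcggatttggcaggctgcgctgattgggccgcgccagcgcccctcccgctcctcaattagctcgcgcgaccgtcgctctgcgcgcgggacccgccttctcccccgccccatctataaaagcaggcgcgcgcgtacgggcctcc
It held 2 matches, at -171 and -153, and 7.02% of all windows held at least 1. Neither GAAANNGAAA, the interferon response element (2.98% of windows), nor TTCNNNNGAA, the spacing preferred by STAT6 (5.85%), was found in it. These matches are descriptions of the letters, and binding was not measured in these data.

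The level of Nr4a1 was 382, 382 and 362 CPM in the classical monocyte libraries, 700, 812 and 610 in those of early CMDMs, 307, 350 and 330 in those of late CMDMs and 376, 391 and 362 in those of resident-like macrophages. Early CMDMs were above all other libraries, and classical monocytes and resident-like macrophages overlapped. The log2 fold change was 0.91 ± 0.11 in early CMDMs against classical monocytes (adjusted p = 3.50e-06 in edgeR's quasi-likelihood test), -1.10 ± 0.11 in late against early CMDMs and -0.91 ± 0.11 in resident-like macrophages against early CMDMs. With leukocyte gene scaling, whose shift goes the same way in each, the values were 2.69, -2.10 and -2.55.

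The other receptors of the family had a different order. Nr4a2 had 188, 187 and 314 CPM in the classical monocyte libraries, 91.8, 91.8 and 110 in those of early CMDMs, 107, 95.5 and 94.5 in those of late CMDMs and 251, 237 and 255 in those of resident-like macrophages. Nr4a3 had 199, 199 and 242 CPM, 94.3, 105 and 98.5 CPM, 103, 114 and 104 CPM, and 414, 345 and 329 CPM in the same order. In early CMDMs against classical monocytes they fell by 1.23 and 1.10 on the log2 scale where Nr4a1 rose, but both turned sign with leukocyte gene scaling. Against late CMDMs they were higher in resident-like macrophages by 1.32 and 1.76, under both scalings.

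Of 15 immediate early and heat shock genes, 14 rose and 0 fell in early CMDMs against classical monocytes, with a median log2 fold change of 1.14 beside -0.01 over all genes tested. Fos, a subunit of AP-1, rose from 1450 ± 77.7 to 2964 ± 311 CPM, and Fosb from 1682 ± 32.2 to 3715 ± 362 CPM. The summed level of the 15 genes was 9261 to 9434 CPM in the classical monocyte libraries, 15946 to 19113 in those of early CMDMs, 13715 to 15940 in those of late CMDMs and 15891 to 16676 in those of resident-like macrophages. The sum thus stayed high in the Ly6Clo fractions, where Nr4a1 did not pass the test against classical monocytes, and the part of handling, of keratinocytes or of a signal in the level of Nr4a1 was not tested.

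Of 8 genes of non-classical monocytes that depend on NR4A1, 7 were lower and 1 higher in early CMDMs than in classical monocytes, of which Ace and Eno3 turned sign with leukocyte gene scaling. Spn, which encodes CD43, had 90.9 ± 10.9 CPM in classical monocytes and 7.62 ± 0.367, 10.1 ± 2.28 and 35.1 ± 2.27 CPM in the early CMDM, late CMDM and resident-like libraries. Cx3cr1, the fractalkine receptor, had 44.1 ± 11.2, 5.56 ± 1.23, 9.04 ± 2.19 and 35.8 ± 11.4 CPM in this order. The gene that was higher was Cd9, a tetraspanin that keratinocytes also express, with 156 ± 31.8 and 475 ± 70.8 CPM.

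PPARγ, encoded by Pparg on chr6:115360951-115490399 (plus strand), is a lipid-sensing receptor that IL-4 induces in macrophages and that adipocytes and sebocytes use. Pparg had 11.6, 12.8 and 8.31 CPM in the classical monocyte libraries, 6.31, 6.26 and 7.60 in those of early CMDMs, 12.1, 12.8 and 11.7 in those of late CMDMs and 14.3, 16.7 and 12.2 in those of resident-like macrophages. Early CMDMs were below all other libraries, and the other 3 fractions overlapped. The log2 fold change was -0.70 ± 0.17 in early CMDMs against classical monocytes (adjusted p = 0.00337 in edgeR's quasi-likelihood test), which turned to 1.01 with leukocyte gene scaling, and 0.86 ± 0.17 in late against early CMDMs, which turned to -0.08. Resident-like macrophages were at 0.40 ± 0.16 against classical monocytes (adjusted p = 0.0895, edgeR), a value called without classical monocyte library 2 (0.54, adjusted p = 0.041). Pparg overlaps the antisense gene Gm44079.

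Rxra, the partner of PPARγ on DNA, had 20.1 ± 3.05 CPM in the classical monocyte libraries, 57.9 ± 3.78 in those of early CMDMs, 38.7 ± 2.06 in those of late CMDMs and 26.1 ± 2.92 in those of resident-like macrophages. With TMM it was higher than in classical monocytes in all 3 of these. With leukocyte gene scaling Rxra was no longer called in resident-like macrophages against classical monocytes. Ppara, the receptor of fatty acid oxidation, had 1.61 ± 0.645, 5.53 ± 0.343, 3.83 ± 0.657 and 0.840 ± 0.459 CPM. Of 8 genes known to follow PPARγ, 6 were higher and 0 lower in late CMDMs than in classical monocytes, while Pparg itself was not called there with TMM (0.16) and was with leukocyte gene scaling (0.93, adjusted p = 0.000778 in edgeR's quasi-likelihood test). Plin2, the coat protein of lipid droplets, had 288 ± 42.2 CPM in classical monocytes and 472 ± 25.3 in the late CMDM libraries. Cd36, the scavenger receptor for oxidized lipoprotein, had 60.8 to 73.9 and 123 to 162 CPM in these fractions. Of 12 genes known to answer to IL-4, 8 were higher and 1 lower in late CMDMs than in classical monocytes, among them Retnla with 113 ± 12.2 and 1131 ± 403 CPM.

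A ratio of 2 factors within a library does not depend on how libraries are scaled. It does depend on the mix of cells in the library, and the part of keratinocytes or other cells in the ratios was not tested. Such ratios, 12 in all, were compared across the 4 fractions by an exact permutation test over the 12 libraries. The statistic was the spread within fractions, all 15400 divisions of the libraries were enumerated and the test was one-sided. 9 of the 12 ratios passed an adjusted p of 0.05. Irf8 over Spi1 had a mean log2 ratio of 0.31 in classical monocytes, -0.80 in early CMDMs, -1.14 in late CMDMs and -1.62 in the resident-like fraction. Its exact permutation p was 6.49e-05, the smallest the divisions allow, and the adjusted p was 0.000156. Maf over Spi1 was -2.00, 0.77, 0.28 and -1.65 in the same order, with the same p, and no libraries of different fractions overlapped. Relative to Spi1, Maf was therefore 6.83-fold higher in early CMDMs than in classical monocytes.

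Irf4 over Irf8 had mean log2 ratios of -2.90, -2.06, -1.52 and -0.33 from classical monocytes through both kinds of CMDM to resident-like macrophages (adjusted p = 0.00026, exact permutation test). The ratio rose from fraction to fraction, with overlap of libraries between early and late CMDMs. Klf2 over Klf4 was -1.59, -2.55, -1.35 and -1.10, with an adjusted p of 0.000156 in the exact permutation test. Nr4a1 over Spi1 was 0.28, 2.23, 0.17 and -0.19 (adjusted p = 0.00166, exact permutation test). Klf2 over Spi1 and Klf4 over Spi1 passed as well (adjusted p = 0.000156 and 0.000334, exact permutation test), while Irf4 over Spi1 passed with 0.0365 and reached up to 0.129 when 1 library was left out. Cebpb over Spi1, Cebpb over Cebpa and Pparg over Spi1 did not pass (adjusted p = 0.19, 0.25 and 0.258, exact permutation test). Pparg over Spi1 had means between -4.90 and -4.47 with overlap among all fractions.

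**Figure D5:**
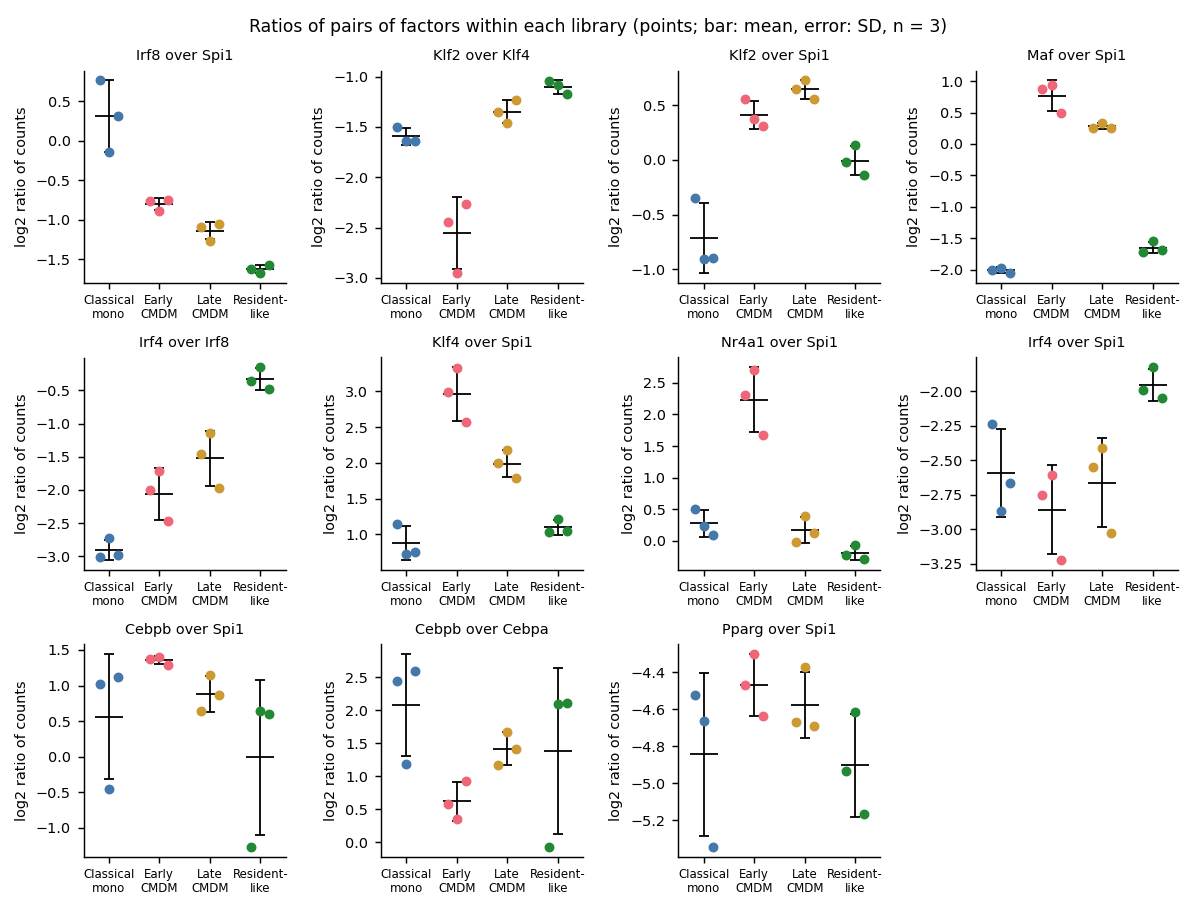
Log2 ratio of the counts of 11 pairs of factors (vertical axes, one range per panel) within each library of the 4 fractions (points: libraries 1, 2 and 3 from left to right; bar: mean, error bar: SD), ordered by the adjusted p of the exact permutation test. Irf8 over Spi1 falls and Irf4 over Irf8 rises in mean from classical monocytes to resident-like macrophages, Maf over Spi1 is above 0 in both kinds of CMDM and at -1.55 or below in the other fractions, and the 3 panels at the end (Cebpb over Spi1, Cebpb over Cebpa, Pparg over Spi1) did not pass.

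To set levels of different genes side by side, CPM were divided by the length of the longest coding transcript in kilobases. On this scale Cebpb, Klf4, Spi1 and Nr4a1 led in classical monocytes, with 337, 188, 153 and 147 CPM per kilobase, followed by Irf8 with 137. Klf4 led in early CMDMs (386 CPM per kilobase), before Nr4a1 (277) and Cebpb (257). In late CMDMs the order was Klf4 (385), Cebpb (360) and Klf2 (247), and in resident-like macrophages Cebpb (331), Klf4 (304) and Klf2 (232). Maf reached 55.9 CPM per kilobase in late CMDMs and Irf4 23.3 in resident-like macrophages, while Pparg stayed between 3.16 and 6.80, the lowest of the 9 in every fraction.

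The 9 factors were set beside 128 other transcription factors of monocytes, macrophages and dendritic cells, of which 123 had enough counts to be tested. In early CMDMs against classical monocytes 33 of these were higher and 60 lower, and 48 of the 93 turned sign with leukocyte gene scaling. In late against early CMDMs 41 were higher and 22 lower (30 turned sign), and in resident-like macrophages against late CMDMs 39 were higher and 24 lower (16 turned sign). None of the 69 that differed between resident-like macrophages and classical monocytes turned sign, with 38 higher and 31 lower. In late CMDMs against classical monocytes 38 were higher and 51 lower (29 turned sign). In resident-like macrophages against early CMDMs 61 were higher and 34 lower (55 turned sign). The shares of the list called with TMM were 75.6%, 51.2%, 51.2%, 56.1%, 72.4% and 77.2% in the order given here. Among all genes tested they were 44.9%, 31.9%, 28.1%, 23.7%, 35.6% and 46.6%. Apart from the family relatives described above, the factors with the largest falls from classical monocytes to early CMDMs were Stat4 (24.6 to 1.11 CPM), Ikzf3 (26.9 to 1.53 CPM) and Runx2 (109 to 9.41 CPM), factors known from lymphocytes or plasmacytoid dendritic cells. Those with the largest rises were Id1 (47.7 to 290 CPM), Gata3 (14.2 to 61.8 CPM) and Egr3 (38.9 to 167 CPM), of which Gata3 is known from keratinocytes as well as from T cells.

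With the relatives again left aside, the largest rises from early to late CMDMs were those of Lyl1 (21.8 to 59.5 CPM), Mef2c (26.4 to 68.1 CPM) and Tfec (17.4 to 44.6 CPM). Tfec, a macrophage factor of the MiT family, fell again to 16.5 CPM in resident-like macrophages, as Maf did. In resident-like macrophages against late CMDMs the largest falls outside the families were those of Gata6 (3.51 to 0.82 CPM), the factor of peritoneal macrophages, Epas1 (28.3 to 8.91 CPM), which encodes HIF-2α, and Tfec. The largest rises outside the families were those of Zeb1 (10.5 to 36.6 CPM), Ikzf3 (1.17 to 3.82 CPM) and Gata2 (1.57 to 5.04 CPM). Gata2 is a marker of basophils and mast cells, of which all 5 tested markers were higher in resident-like macrophages than in late CMDMs, with a sum of 29.7 to 55.2 CPM against 12.6 CPM or less. Against early CMDMs, resident-like macrophages had higher Batf (91.0 against 20.2 CPM), Batf3 (31.0 against 7.88 CPM) and Zbtb46 (10.2 to 13.3 against 2.85 to 3.35 CPM), factors of dendritic cells. With leukocyte gene scaling 1 factor of the wider list was higher in this comparison and 100 were lower. Batf, Batf3 and Zbtb46 did not turn sign, but at most 1 of them stayed called.

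The genes most like each factor were found by the root mean square difference of centred log2 CPM over the 12 libraries, among 12765 genes with a mean of at least 5 CPM. Nearest to Spi1 were Gch1 (0.11), Entpd1 (0.12) and Lcp1 (0.12), beside 0.58 for the spread of Spi1 itself, and Lcp1 is one of the 10 leukocyte genes. Nearest to Irf8 were Lair1 (0.17), Il21r (0.17) and Eepd1 (0.19), beside 0.83. Irf4 had Cd83 (0.16), a surface marker of activated dendritic cells, Pip4k2a (0.21) and Batf (0.21), the AP-1 factor that binds DNA together with IRF4, beside 0.87.

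Maf had Gas6 (0.15), the ligand that bridges apoptotic cells to the receptor MerTK, Tmem26 (0.21) and Rnf144b (0.23), beside 0.85. The level of Gas6 was 89.4, 254, 394 and 153 CPM across the fractions from classical monocytes to resident-like macrophages. Klf2 had Prkar2b (0.12), Adgre1 (0.14), which encodes the macrophage marker F4/80, and Tnfsf12 (0.15), beside 0.61. The level of Adgre1 was 84.7, 86.8, 201 and 183 CPM in the same order. Klf4 had Slc35f5 (0.084, beside 0.43), Nr4a1 had Trim16, Gar1 and Taf13 (0.091 to 0.10, beside 0.44), and Pparg had Septin11, Ryr1 and Ddit3 (0.15 to 0.16, beside 0.44). Cebpb had no close neighbour, with 0.29 for Tusc1 and 0.35 for Ube2m and Crls1 beside 0.60.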

How the data were processed

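RNA of the 12 sorted libraries was sequenced, and the authors deposited counts per gene: reads were trimmed with cutadapt 4.1, mapped to GRCm38 reference RNA with Bowtie2 2.4.5 on one strand, counted per transcript and summed by symbol, without normalization. The study's own test used TCC. Depth was 12537178 to 19844113 counts, so that 3 counts were 0.151 to 0.239 CPM. No table column without a sample was found. Libraries of a fraction differed by more than counting noise (chi-square per degree of freedom 4.24 to 21.9), and none was counted as a duplicate.

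Counts of all libraries were fitted together in edgeR 4.0.16 (R 4.3.3) after its expression filter, with TMM scaling and the robust quasi-likelihood test, and adjusted over 22118 genes with a threshold of 0.05. Ratios had 1 count added and were adjusted over 12. Alternatives were DESeq2 1.42.0, other scalings including 3 rounds of DEGES, other filters and thresholds, a replicate block and leaving out each library. The fits were tested on simulated counts.

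The 9 genes and the gene lists were chosen with earlier results of these data known. Genes named by rule were the 9 factors, their family relatives, up to 4 of the most abundant genes of each target or marker list, the 3 highest and 3 lowest called factors of the wider list without overlap in a comparison, and the 3 nearest genes. Other genes named (those whose sign turned with the scaling, Ciita and Cd207 among them) were chosen after their values were seen. Some genes that these rules name, and 1 ratio, are not reported here.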

Additional observations from a re-analysis of the deposited data

How the results depend on the processing

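Under DESeq2, and with a replicate block, the counts of the 9 factors called were 7, 7, 4, 4, 6 and 8 for early CMDMs against classical monocytes, late against early CMDMs, resident-like macrophages against late CMDMs, late CMDMs against classical monocytes, and resident-like macrophages against classical monocytes and against early CMDMs, as reported; in the wider list the block gave 94, 71, 65, 95, 74 and 96. Deviations of libraries with the same number correlated at -0.099 to 0.248, and those of other numbers at -0.215 to 0.171. The labels give the number no meaning and not every pair passed 0.1, so it was not taken as a pairing, although as a hint from the data every library correlated best with its own number in 2 of the 6 comparisons (early CMDMs against classical monocytes, resident-like macrophages against late CMDMs). The counts moved with leukocyte gene scaling to 3 in late against early CMDMs (all lower, where TMM had 6 of 7 higher) and to 8 in late CMDMs against classical monocytes, beside 73.1% and 67.1% of all genes. For early CMDMs against classical monocytes the count went from 7 to 9, beside 92.9% of all genes. Resident-like macrophages against late CMDMs had 5 in place of 4, beside 56.3% of all genes. Requiring a log2 fold change of at least 1 gave 3 in late against early CMDMs, 2 in resident-like macrophages against late CMDMs, and 3 and 4 in resident-like macrophages against classical monocytes and early CMDMs, and 53, 18, 17, 31, 26 and 49 in the wider list. Without 1 library the counts ranged from 7 to 7, 6 to 7, 3 to 4, 4 to 4, 5 to 7 and 8 to 8, in the wider list from 87 to 93, 50 to 73, 49 to 66, 73 to 92, 58 to 72 and 87 to 97, and 8 to 9 ratios passed. For DESeq2, the block, the higher threshold and the fits without 1 library, shares of all genes are not given here. The counts in these settings therefore say nothing of the factors beside the rest of the genes. 

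Leukocyte gene scaling turned the sign of 21 single values. In early CMDMs against classical monocytes these were Spi1 (0.66), Cebpb (1.32), Irf4 (0.41) and Pparg (1.01). In late against early CMDMs they were Cebpb (-0.44), Maf (-0.48), Irf8 (-0.31) and Pparg (-0.077). In resident-like macrophages against late CMDMs they were Spi1 (-0.083), Irf8 (-0.57), Nr4a1 (-0.45) and Pparg (-0.40). In late CMDMs against classical monocytes they were Spi1 (0.68), Irf4 (0.63) and Nr4a1 (0.59), and in resident-like macrophages against classical monocytes Cebpb (0.12). In resident-like macrophages against early CMDMs they were Spi1 (-0.060), Cebpb (-1.20), Klf2 (-0.48), Irf8 (-0.88) and Pparg (-0.48). The scaling moves every gene by its shift of the median.

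The other turns of sign were of values that had not been called, and their cause was not tested. Klf4 in late against early CMDMs was 0.0013 with DESeq2, 0.0054 with RLE size factors and 0.0082 with the 6 libraries alone, and -0.049 to 0.068 without 1 library. Klf2 in early CMDMs against classical monocytes was -0.037 to 0.24 without 1 library. With the pair of libraries low in Cebpb left out, an alternative chosen after seeing the data, Cebpb was 0.28 in resident-like macrophages against late CMDMs, and -0.24 in late CMDMs and 0.031 in the resident-like fraction against classical monocytes. Without 1 library these Cebpb values ranged from -0.39 to 0.27, from -0.24 to 0.46 and from -0.37 to 0.37. Irf8 in resident-like macrophages against late CMDMs was -0.066 by library size only and -0.050 to 0.13 without 1 library, and Pparg in late CMDMs against classical monocytes was -0.0012 to 0.30 without 1. Nr4a1 in resident-like macrophages against classical monocytes was -0.0049 with DESeq2, -0.0039 with RLE, -0.016 with DEGES, -0.17 by library size only and -0.021 to 0.032 without 1 library.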
